A study of Schizosaccharomyces pombe 972h- with 4 samples.

Results

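Messenger RNA levels of 5 genes were followed in the fission yeast S. pombe on both sides of a deletion of Ofd2, a dioxygenase that acts on histone H2A. The genes were hta1 (systematic name SPCC622.08c), which encodes histone H2A, htb1 (SPCC622.09), which encodes histone H2B, and the JmjC-domain genes epe1 (SPCC622.16c), jmj3 (SPBC83.07) and jmj4 (SPCC622.19). They were chosen by function and not by their values, and each was found by its systematic name among the 4997 targets of the array. Cultures of wt and Ofd2Δ cells were grown at 30 °C in rich medium with 2% glucose. They were then held for 90 min in normal oxygen (20%) or in hypoxia (below 1% oxygen). RNA of 2 experiments was combined for each of the 4 conditions and hybridised to 1 single-colour array, so each value below belongs to 1 pool. The Ofd2Δ cells lacked the gene throughout the culture, in normal oxygen as well as in hypoxia.

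Histones H2A and H2B form dimers that join a tetramer of H3 and H4, and DNA is wrapped around the resulting octamer. Histone genes are transcribed mainly in S phase, when new chromatin is assembled. Dioxygenases of the 2-oxoglutarate and Fe(II) family use molecular oxygen as a substrate, and in the JmjC branch the best known reaction removes methyl groups from histone lysines. Ofd2 belongs to the AlkB branch of the same family. Epe1 carries a JmjC domain and is known in S. pombe for keeping heterochromatin from spreading past its boundaries. The comparison asks whether the transcript of the Ofd2 substrate, that of its dimer partner or those of related oxygen-using enzymes moved with oxygen or with loss of Ofd2.

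Each array carried 14 spots per target, as 7 probes of 60 bases printed in each of 2 blocks. The blocks repeat the hybridisation of 1 RNA pool, so the spread between them is technical. No condition has a second array, so the differences below carry no replicate check and no p-value. The median gene spot read between 4009 and 7529 and the median control spot between 112 and 126. The lowest gene median was that of the Ofd2Δ hypoxia array, which was also scanned on a separate occasion. For any comparison that includes this array, condition and scan cannot be told apart. The deleted gene itself carries no name in the gene tables used here, so the labels were not checked through it. One unnamed target, picked after its values were seen, had a ratio of Ofd2Δ to wt of 0.00412 in normal oxygen and 0.00721 in hypoxia, and was the single target at or below 0.5 in both. In each array the median spot of each of the 5 genes exceeded the control spots' 95th percentile. None of their spots reached 65000, near the top of the scanner range, but the highest htb1 spot in wt in normal oxygen read 64263. In RNA from whole cultures, fewer cells expressing a gene and less RNA per cell cannot be told apart.

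After quantile normalisation, which gives all values below unless another scaling is named, none of the 5 genes differed by 1.5-fold or more in any comparison. With the arrays scaled to a common median instead, hta1 and htb1 were at least 1.5-fold lower in hypoxia in Ofd2Δ and in the quotient of the Ofd2Δ and wt ratios, and htb1 was so between strains in hypoxia. In the same order, 352, 248 and 107 of the 4997 targets were so much lower under that scaling. Among its 500 brightest targets the shares were 33.4%, 34% and 14.6%. In the values the authors deposited, hta1 was at least 1.5-fold lower in hypoxia in Ofd2Δ, beside 119 of all targets and 3.6% of the 500 brightest. With quantile normalisation, between normal oxygen and hypoxia, 0 of 5 were at least 1.5-fold higher or lower in wt, where 0.82% of all targets were higher and 2.28% lower. In Ofd2Δ cells the count was again 0 of 5, beside 3.28% of targets higher and 2.88% lower. Between the strains it was 0 of 5 in normal oxygen (0.08% higher and 0.22% lower over all targets) and 0 of 5 in hypoxia (1.62% higher and 0.72% lower). At 2-fold, the threshold used in the study for a change, 0.16% of targets were higher and 0.64% lower in wt, and 0.44% were higher and 1% lower in Ofd2Δ cells. The corresponding shares between strains were 0.02% and 0.08% in normal oxygen and 0.14% and 0.18% in hypoxia. The Ofd2Δ hypoxia ratio divided by that of wt passed 1.5-fold for 0 of 5 genes, beside 1.98% of targets higher and 0.72% lower. With so few targets past either fold, a count of 0 among 5 genes is near the background. The smaller differences described below were read against the spread of all targets and against the gap between blocks.

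**Figure D1:**
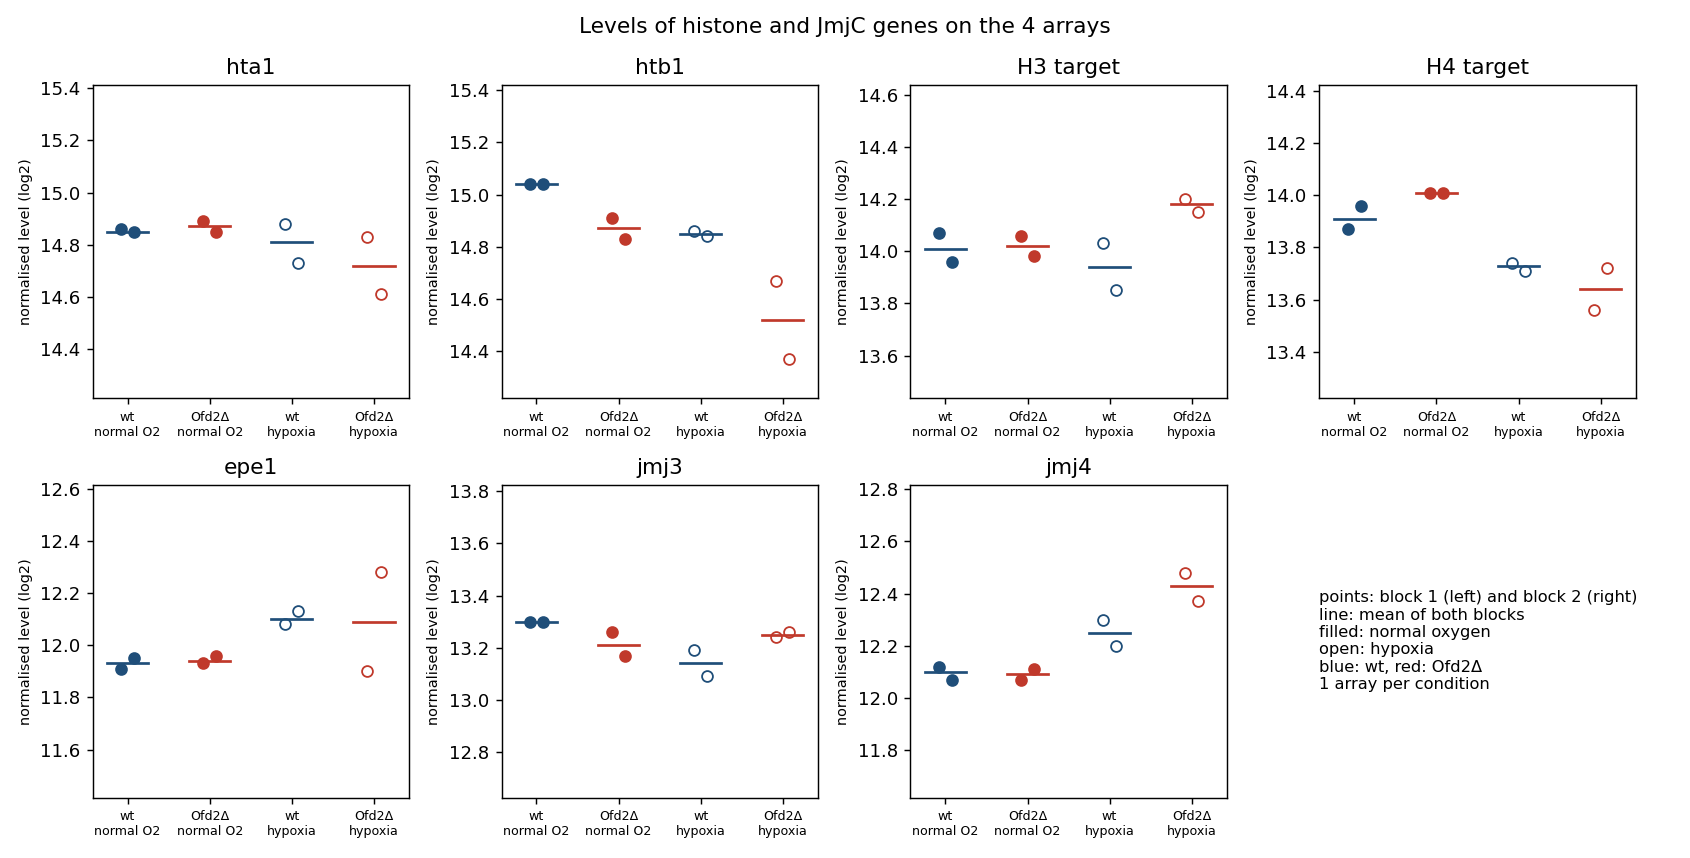
Normalised level (log2) of each of the 5 genes and of the targets described as histone H3 and H4, by array, on axes of equal height; points are the 2 blocks of an array and lines are their mean. The htb1 level was highest in wt cells in normal oxygen (15.04) and lowest in Ofd2Δ cells in hypoxia (14.52), while epe1 and jmj4 were higher in both hypoxia arrays than in both normal oxygen arrays by their mean level.

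The H2A gene hta1 held nearly the same level in 3 of the 4 arrays. Its normalised log2 level in blocks 1 and 2 was 14.86 and 14.85 in wt in normal oxygen, 14.89 and 14.85 in Ofd2Δ in normal oxygen, 14.88 and 14.73 in wt in hypoxia, and 14.83 and 14.61 in Ofd2Δ in hypoxia. The block values of the wt arrays overlapped, and the 2 values from Ofd2Δ cells in hypoxia lay below those of the same cells in normal oxygen. Before normalisation the median of its 14 spots was 38110, 37110, 33954 and 12976 in the same order of arrays. The hypoxia to normal oxygen ratio of hta1 was 0.971 in wt (1.02 and 0.924 in the 2 blocks) and 0.901 in Ofd2Δ (0.957 and 0.845). Between the strains it was 1.01 in normal oxygen and 0.937 in hypoxia. All 4 values lay inside the 5th to 95th percentile range of all targets, which ran from 0.781 to 1.24 for hypoxia in wt and from 0.740 to 1.41 for hypoxia in Ofd2Δ.

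Histone H2B comes from the single gene htb1 in S. pombe, transcribed away from hta1 from the same intergenic region, and after quantile normalisation it had the lowest ratio of the 5 genes in each of the 4 comparisons within and between strains. That order depended on the setting, since in the deposited values jmj3 was lower between strains in normal oxygen (0.862 against 0.921) and hta1 was lower in both comparisons with Ofd2Δ in hypoxia. With median scaling jmj3 was lower than htb1 for hypoxia in wt (0.870 against 0.877) and between strains in normal oxygen (0.949 against 0.972). The log2 level of htb1 was 15.04 in both blocks of wt in normal oxygen, 14.91 and 14.83 in Ofd2Δ in normal oxygen, 14.86 and 14.84 in wt in hypoxia, and 14.67 and 14.37 in Ofd2Δ in hypoxia. The block values did not overlap in any of the 4 comparisons, with the hypoxia array lower in both strains and the Ofd2Δ array lower in both conditions. The spot medians before normalisation were 41160, 37939, 33428 and 13874. The hypoxia to normal oxygen ratio was 0.876 in wt (0.882 and 0.869) and 0.790 in Ofd2Δ (0.851 and 0.729).

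Between strains, the htb1 ratio of Ofd2Δ to wt was 0.886 in normal oxygen (0.909 and 0.863) and 0.801 in hypoxia (0.877 and 0.724). Ranked among all targets, these stood at the 3.78th and 4.78th percentile, just below the 5th percentiles of 0.897 and 0.804. The hypoxia ratios stood at the 11.8th percentile in wt and the 8.11th in Ofd2Δ and so were within the range of the other targets. The ratio of Ofd2Δ to wt in normal oxygen rests on a pair of arrays with similar spot medians, and its size depended on the scaling. It was 0.972 when the arrays were scaled to a common median and 0.921 in the values the authors deposited. Among the 500 brightest targets the 5th percentile of this ratio was 0.927 with quantile normalisation, 0.999 with median scaling and 0.921 in the deposited values. The htb1 ratio was below that percentile with quantile normalisation and with median scaling, and close to it in the deposited values.

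Single probes showed the same direction for htb1 in wt and a wider spread in Ofd2Δ. In wt, all 14 spots of htb1 were lower in hypoxia, with ratios from 0.770 through a median of 0.879 to 0.981. In Ofd2Δ, 12 of 14 were lower, from 0.543 through 0.761 to 1.08. For hta1, 8 of 14 spots were lower in wt (0.829 to 1.10, median 0.961) and 13 of 14 in Ofd2Δ (0.475 to 1.08, median 0.867). The spots are not independent, since each probe is present in both blocks and the probes overlap. The 7 probes of hta1 start between bases 14 and 350 of the target in 3 groups of overlapping probes, and those of htb1 between bases 44 and 237 in 2 groups. Neighbouring probes still differed: in Ofd2Δ cells the htb1 probe starting at base 124 gave 0.669, whereas the one at base 129 gave 0.900. In wt the same probes gave 0.892 and 0.861.

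**Figure D2:**
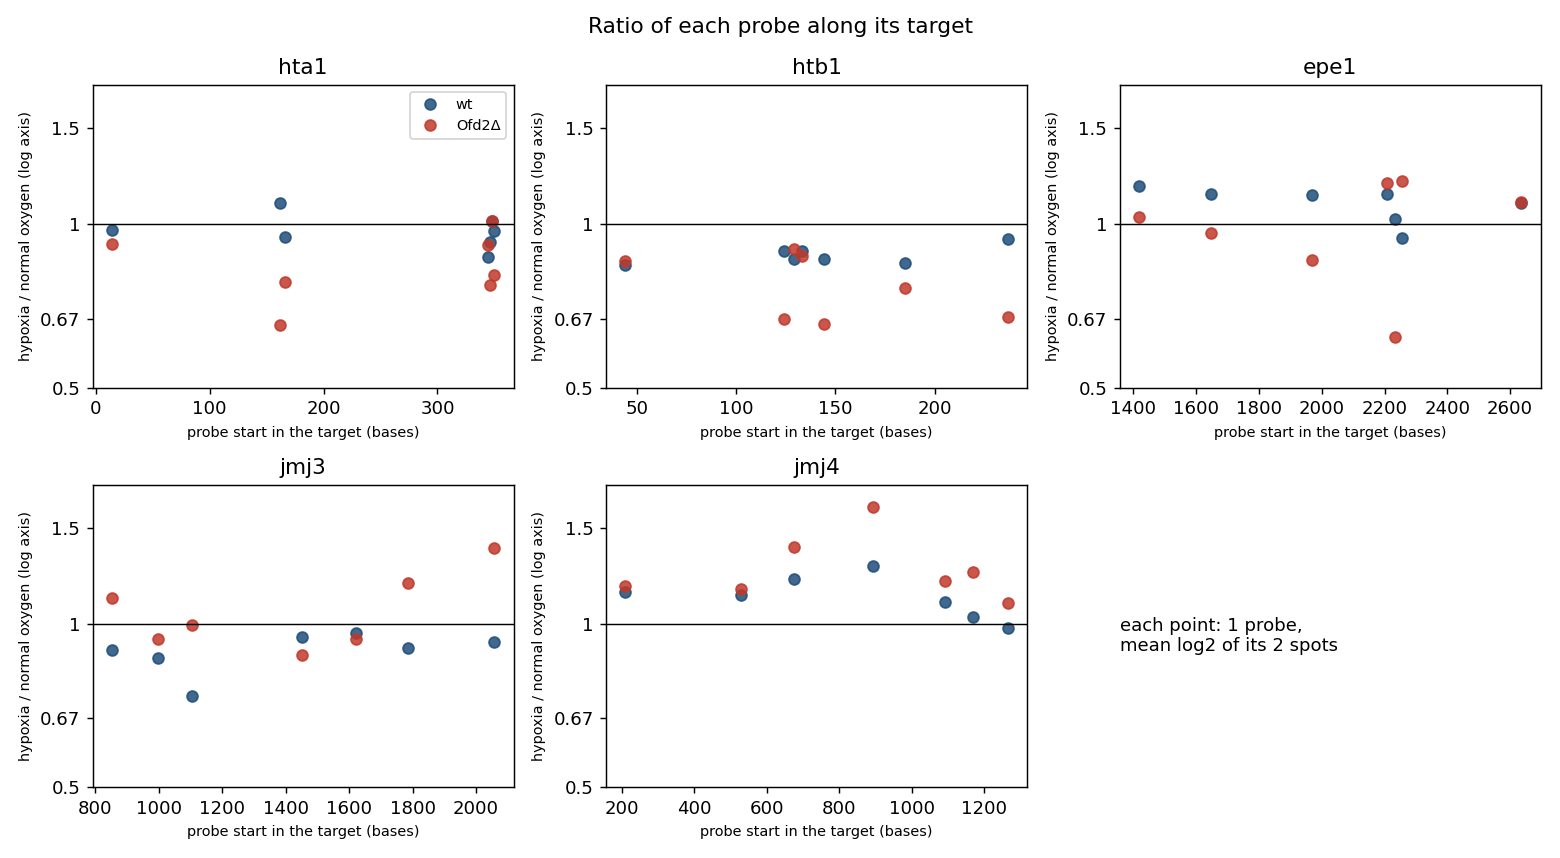
Ratio of hypoxia to normal oxygen (log axis) of each probe of the 5 genes against its start in the target in bases, as the mean log2 of its 2 spots, in wt (blue) and Ofd2Δ (red). All 7 htb1 probes were below 1 in both strains, all 7 jmj3 probes were below 1 in wt, and the Ofd2Δ points spread more widely than the wt points along each of the 5 genes.

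The hypoxia ratio in Ofd2Δ cells varied with the brightness of the target, and hta1 and htb1 were bright, at the 96.3rd and 96.5th percentile of mean level. After quantile normalisation the median ratio was 1.08 for the dimmest 25% of targets. For the 500 targets above the 90th percentile of level it was 0.958, with the middle 50% of targets between 0.886 and 1.05, so hta1 (0.901) was inside that range and htb1 (0.790) below it. With median scaling the ratio fell to 0.617 for hta1 and to 0.558 for htb1, and the median of the 500 brightest targets under that scaling was 0.697, with 33.4% of them at least 1.5-fold lower. In the deposited values hta1 gave 0.662 and htb1 0.728, beside a median of 0.870 for the 500 brightest targets of that table, 3.6% of which were at least 1.5-fold lower. Across these 3 scalings both genes lay below the median of the 500 brightest targets, with htb1 below hta1 in the first 2 and above it in the deposited values. Whether hta1 or htb1 reached 1.5-fold lower in Ofd2Δ thus depended on the scaling. The part of brightness, scan and scaling in these ratios was not tested.

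**Figure D3:**
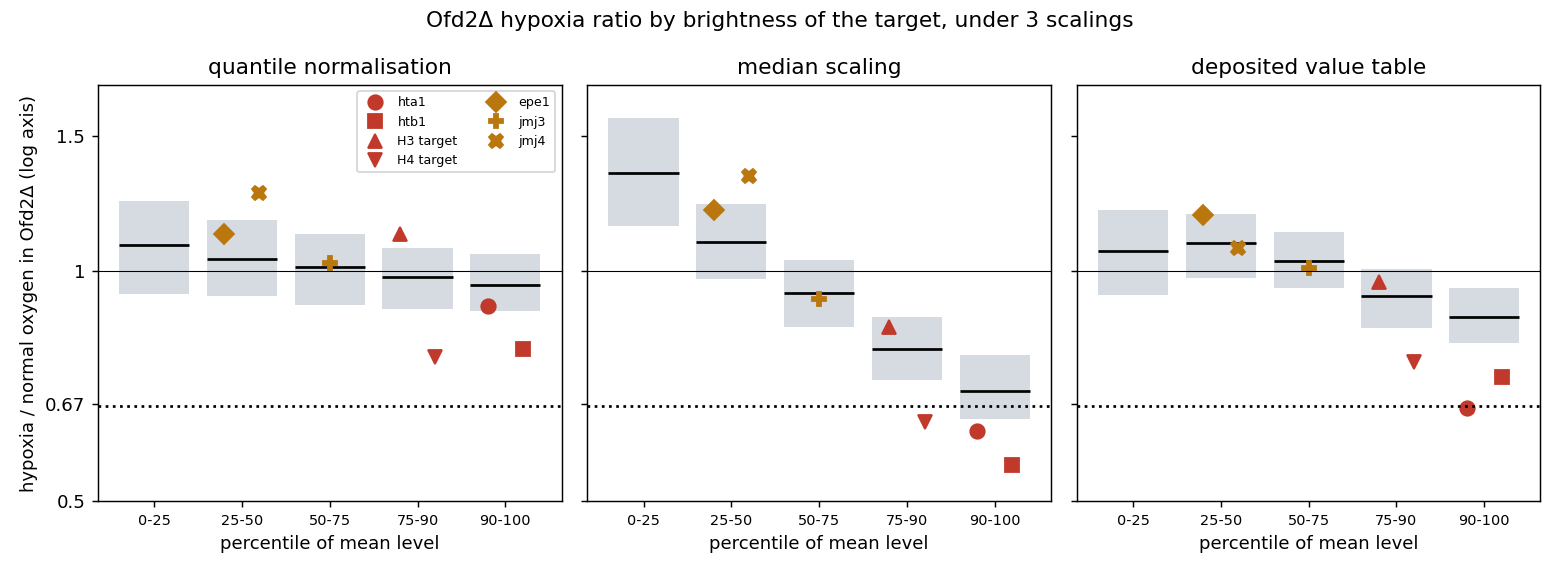
Ratio of hypoxia to normal oxygen in Ofd2Δ (log axis) by percentile of mean level, under 3 scalings; bars span the middle 50% of all targets in a band, black lines are band medians, the dotted line is 1.5-fold lower, and symbols are single genes placed in their band after quantile normalisation, while the bands were formed anew under each scaling. The median of the band above the 90th percentile was 0.958 with quantile normalisation, 0.697 with median scaling and 0.870 in the deposited values, and hta1 and htb1 lay below it in all 3.

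In the deposited values both hta1 and htb1 read lowest in the Ofd2Δ hypoxia array. For hta1 the deposited intensities of the 2 blocks were 28993 and 28687 in wt in normal oxygen, 29628 and 29865 in Ofd2Δ in normal oxygen, 28881 and 26639 in wt in hypoxia, and 19956 and 19440 in Ofd2Δ in hypoxia. For htb1 they were 30044 and 29302, 26993 and 27667, 26216 and 24461, and 19440 and 20347. For htb1, the wt hypoxia and Ofd2Δ normal oxygen arrays were also lower than wt in normal oxygen.

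Targets described as histone H3 and histone H4 represented the other core histones of the octamer. S. pombe has several genes for each, with near-identical coding sequences, and the tables used here do not say which gene these targets stand for. The H3 target read 14.07 and 13.96 on the log2 scale in wt in normal oxygen, 14.06 and 13.98 in Ofd2Δ in normal oxygen, 14.03 and 13.85 in wt in hypoxia, and 14.20 and 14.15 in Ofd2Δ in hypoxia. It was highest in Ofd2Δ cells in hypoxia, the array in which hta1 and htb1 were lowest. Its hypoxia ratio was 0.9495 in wt and 1.12 in Ofd2Δ, and the Ofd2Δ value became 0.845 with median scaling and 0.969 in the deposited values, so the direction of the H3 target in Ofd2Δ was not settled.

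The H4 target behaved more like htb1 in the hypoxia comparisons. It read 13.87 and 13.96 in wt and 14.01 in both blocks of Ofd2Δ in normal oxygen, and 13.74 and 13.71 in wt and 13.56 and 13.72 in Ofd2Δ in hypoxia. Its block levels were lower in hypoxia without overlap in both strains, at ratios of 0.879 in wt and 0.773 in Ofd2Δ. Unlike htb1, it was not lower in Ofd2Δ in normal oxygen, where the ratio to wt was 1.07. Over the 4 core histone targets, of 11 core and variant histone genes listed, the hypoxia ratio was below 1 for 4 of 4 in wt (median 0.914) and 3 of 4 in Ofd2Δ (median 0.846), beside 43% and 46.1% of all targets and medians of 1.02 in each strain. None reached 1.5-fold. With median scaling, 3 of 4 (hta1, htb1 and the H4 target at 0.636) were at least 1.5-fold lower in Ofd2Δ, beside 352 of the 4997 targets. In the deposited values 1 of 4 was (hta1), beside 119. The H2A, H3 and H4 targets may hold signal from the other copies of each gene, which was not tested because the probe sequences were not used here.

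**Figure D4:**
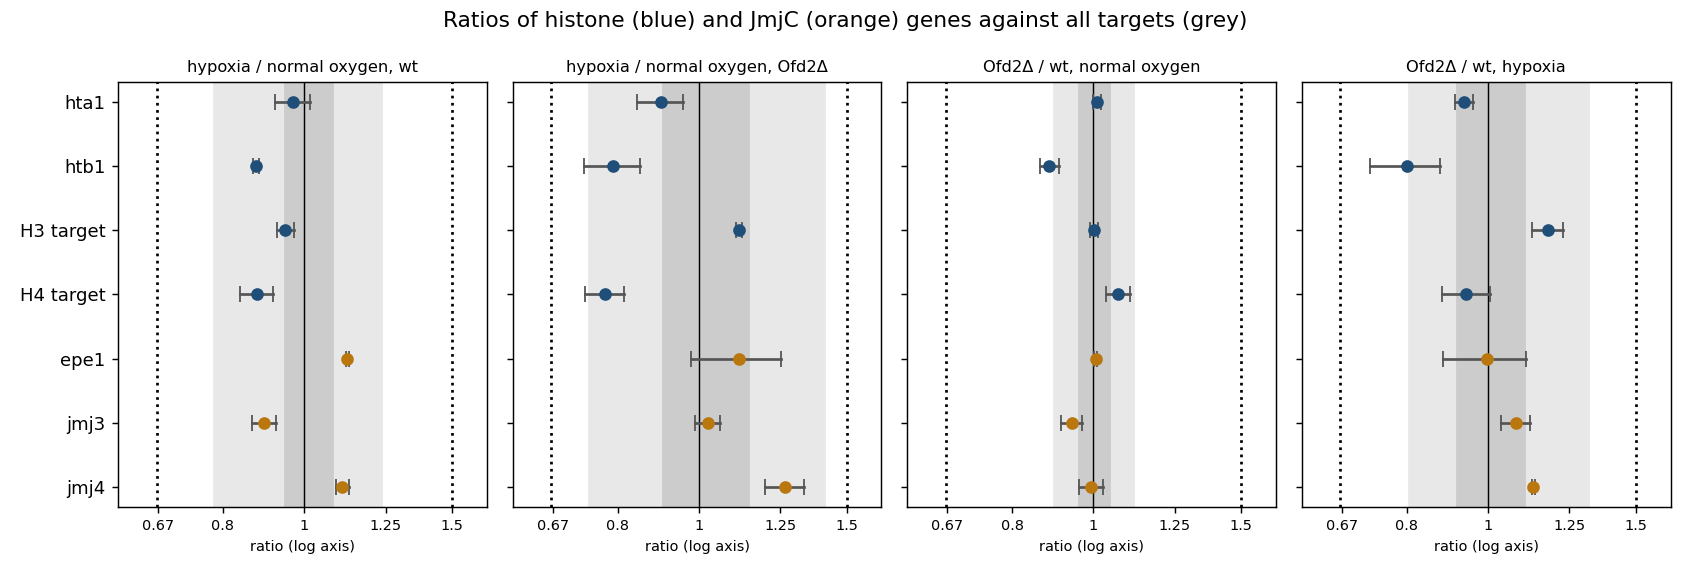
Ratio (log axis) of each histone (blue) and JmjC (orange) gene in the 4 comparisons; points are the mean of the 2 block ratios, whiskers run from one block ratio to the other, dark and light grey bands hold the middle 50% and the 5th to 95th percentile of all 4997 targets, and dotted lines mark 1.5-fold. Each point lies between the dotted lines, and htb1 lies at the low edge of the light band between strains in both conditions.

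Epe1 mRNA was slightly higher in hypoxia in wt. The log2 level of epe1 was 11.91 and 11.95 in wt and 11.93 and 11.96 in Ofd2Δ in normal oxygen, and 12.08 and 12.13 in wt and 11.90 and 12.28 in Ofd2Δ in hypoxia. The strains gave the same level in normal oxygen, and in Ofd2Δ in hypoxia the 2 blocks fell on either side of the normal oxygen values. The hypoxia ratio was 1.13 in wt (1.12 and 1.13) and 1.12 in Ofd2Δ (0.980 and 1.252), and between strains it was 1.01 in normal oxygen and 0.996 in hypoxia. Of the 14 epe1 spots, 12 were higher in hypoxia in wt, with a median of 1.13, and 8 in Ofd2Δ, with a median of 1.01. The probe starting at base 2232 gave 0.621 in Ofd2Δ and 1.02 in wt, while the overlapping one at base 2257 gave 1.199 and 0.944. The means of log2 probe values put the Ofd2Δ ratio at 0.987, so the sign of the epe1 difference in Ofd2Δ depended on how probes were combined.

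The JmjC gene jmj3 was lower in hypoxia in wt and near 1 in Ofd2Δ. Its log2 level was 13.30 in both blocks of wt and 13.26 and 13.17 in Ofd2Δ in normal oxygen, and 13.19 and 13.09 in wt and 13.24 and 13.26 in Ofd2Δ in hypoxia. The highest array was wt in normal oxygen and the lowest was wt in hypoxia, with both Ofd2Δ arrays between them. The hypoxia ratio was 0.896 in wt (0.926 and 0.866), where 12 of 14 spots were below 1, and 1.03 in Ofd2Δ (0.989 and 1.06), where 6 of 14 were. Dividing the Ofd2Δ ratio by the wt ratio gave 1.14 for jmj3, with 1.07 and 1.22 in the blocks and between 1.06 and 1.22 over the 7 alternative settings. For all targets this quotient ran from 0.793 to 1.33 between the 5th and 95th percentile. The 7 probes of jmj3 do not overlap each other, and in Ofd2Δ their ratios ran from 0.874 to 1.38.

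The JmjC gene jmj4 was higher in hypoxia in both strains and after quantile normalisation had the highest ratio of the 5 genes in Ofd2Δ, whereas epe1 was higher there in the deposited values (1.18 against 1.07) and in block 2 alone. The log2 level of jmj4 was 12.12 and 12.07 in wt and 12.07 and 12.11 in Ofd2Δ in normal oxygen, and 12.30 and 12.20 in wt and 12.48 and 12.37 in Ofd2Δ in hypoxia. The normal oxygen values of both strains overlapped and lay below all hypoxia values. The hypoxia ratio was 1.11 in wt (1.13 and 1.09) and 1.27 in Ofd2Δ (1.33 and 1.199), with 11 and 13 of 14 spots above 1. In Ofd2Δ each of the 7 jmj4 probes, which do not overlap, had a ratio above 1, from 1.09 to 1.64. Between the strains in hypoxia the ratio was 1.13. The deposited values gave 1.07 for hypoxia in Ofd2Δ and 1.00 between strains in hypoxia, so the strain difference rested on the processing of the probe data. In the band of level that holds epe1 and jmj4, from the 25th to the 50th percentile, the median ratio of all targets in Ofd2Δ was 1.04, with the middle 50% between 0.927 and 1.17.

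Non-overlap of the 2 blocks was common on the array and is a weak criterion. In wt, 2 of the 5 genes were lower without overlap in hypoxia (htb1 and jmj3) and 2 were higher (epe1 and jmj4), beside 22.1% and 28% of all targets. In Ofd2Δ, hta1 and htb1 were lower and jmj4 was higher, beside 25.6% and 32.3%. Between strains, htb1 and jmj3 were lower in Ofd2Δ in normal oxygen (15.1% of targets were). In hypoxia htb1 was lower (22.6%), while jmj3 and jmj4 were higher (26.8%). The median gap between block ratios was 0.07 on the log2 scale for hypoxia in wt and 0.16 in Ofd2Δ, so a given difference was less well resolved in Ofd2Δ.

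Of the 9 dioxygenase genes listed for S. pombe (JmjC, Ofd and related proteins), epe1, jmj3 and jmj4 were the 3 with a name here. Of their 3 ratios, 2 were above 1 in wt and 3 in Ofd2Δ, with medians of 1.11 and 1.12, beside 57% and 53.9% of all targets above 1. The other genes of the list, ofd1 and ofd2 among them, were not analysed here. By distance between mean-centred log2 levels over the 4 arrays, epe1 and jmj4 lay 0.162 apart, epe1 and jmj3 0.247 apart and jmj3 and jmj4 0.315 apart. The divergent neighbours hta1 and htb1 lay 0.272 apart, hta1 was nearer to jmj3 (0.164), and htb1 and jmj4 were the most distant of the 5 genes at 0.636.

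Named targets with the pattern most like each gene were sought among 1242 above the 25th percentile of level. Over 4 arrays such a likeness is a description only, and with so many candidates a near match is found for most patterns. Nearest to hta1 were asn1 (0.0182), rix7 (0.0274) and cid11 (0.0301), beside a median distance of 0.208. Nearest to htb1 were wtf9 (0.0612), kcs1 (0.0667) and mug33 (0.0703), beside a median of 0.402. The nearest match of htb1 was farther off than those of the other 4 genes. Those of epe1 were erg28 (0.0207), cox18 (0.0307) and brl2 (0.0348), those of jmj3 were caf1 (0.0264), spa1 (0.0295) and wtf14 (0.0366), and those of jmj4 were sec8 (0.0150), ham1 (0.0259) and bis1 (0.0264).

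All but jmj3 share a stretch of chromosome 3. The systematic names from SPCC622.01c to SPCC622.20c run along it, hta1 and htb1 are the 8th and 9th, epe1 is the 16th and jmj4 the 19th of 20 genes, all of which were named on the array. The median hypoxia ratio of the 20 genes was 1.12 in wt and 1.07 in Ofd2Δ. At the extremes were gdh1, a glutamate dehydrogenase gene, at 0.688 in wt and 0.629 in Ofd2Δ, and SPCC622.06c at 1.38 and 1.81, a dim target at the 3.94th percentile of level. Between hta1 and its other neighbour SPCC622.07 (1.29 in wt and 1.499 in Ofd2Δ), and between htb1 and its neighbour sec5 (1.11 and 1.14), the ratios differed in direction. SPCC622.07 was dim too, at the 8.5th percentile of level, and sec5 was at the 70.8th, whereas hta1 and htb1 were among the brightest targets. Between strains, htb1 was the lowest of the 20 in normal oxygen (0.886) and in hypoxia (0.801). The ribosomal protein gene rpl6, between epe1 and jmj4 and at the 98.3rd percentile of level, gave 1.02 in wt and 1.00 in Ofd2Δ.

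**Figure D5:**
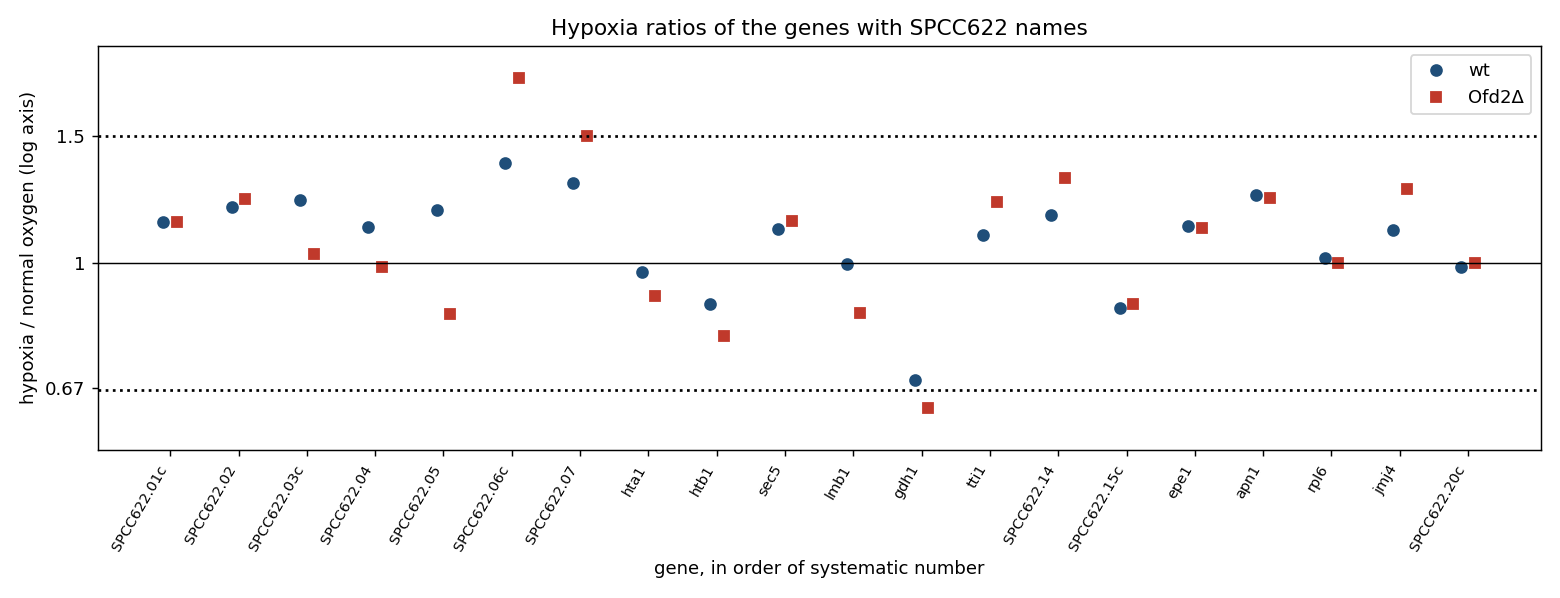
Ratio of hypoxia to normal oxygen (log axis) of the 20 genes with SPCC622 names in order of their number, in wt (blue circles) and Ofd2Δ (red squares), with dotted lines at 1.5-fold. The histone pair hta1 and htb1 lies below 1 in both strains between neighbours above 1, of which SPCC622.07 is a dim target. The genes epe1 and jmj4 lie above 1, and gdh1 is lowest at 0.688 and 0.629.

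After quantile normalisation, named genes for histone supply and for H2A and H2B modification all stayed within 1.5-fold. Of 18 listed regulators of histone genes and histone chaperones, 4 were named (nap1, asf1, hip4 and sim3), with medians of 1.02 in wt and 0.935 in Ofd2Δ. The ratios ran from 0.951 for hip4, of the HIRA histone chaperone complex, to 1.08 for sim3, a chaperone of the centromeric H3 variant, in wt. In Ofd2Δ they ran from 0.882 for hip4 to 1.04 for asf1, a chaperone of H3 and H4. Of 21 genes for ubiquitination of H2A and H2B and for exchange of H2A variants, 8 were named and none reached 1.5-fold. Their medians were 1.00 and 0.987, with sgf73 lowest in wt (0.922), the H2B ubiquitin ligase gene brl1 lowest in Ofd2Δ (0.840), and arp6 highest in both (1.17 and 1.18).

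Genes listed for the S-phase transcription factor MBF were read beside the histone genes, which are transcribed mainly in S phase. The list also holds genes for parts of MBF itself, some of them among those named. Of 20 listed, 7 were named, and 7 of 7 had a ratio below 1 in wt (median 0.865), from cdt1, which licenses replication origins, at 0.730 to yox1, a repressor of MBF, at 0.962. In Ofd2Δ 5 of 7 were below 1 (median 0.890), from the cohesin gene rad21 at 0.772 to yox1 at 1.45. The shares of all targets below 1 were 43% and 46.1%. None of the 7 reached 1.5-fold in either strain. The Ofd2Δ ratio divided by the wt ratio did so for yox1 alone (1.51), a dim target at the 17.9th percentile of level. Over all targets 1.98% were so much higher by that quotient. In the deposited values 0 of the 7 were. With median scaling 1 of 7 was at least 1.5-fold higher in Ofd2Δ, beside 435 of the 4997 targets. The wt median of these genes (0.865) and that of the 4 core histone targets (0.914) were both below the median of all targets (1.02), and the share of cells in S phase was not measured.

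Genes of heterochromatin, the domain that Epe1 limits, leaned the other way in wt, but most of those named were dim targets. Of 25 listed, 12 were named, 10 had a ratio above 1 in wt (median 1.18) and 8 in Ofd2Δ (median 1.09), beside 57% and 53.9% of all targets. The lowest were tas3, of the RITS complex, in wt (0.933) and ago1, the Argonaute gene, in Ofd2Δ (0.880), and the highest in both was cid12, of the RNA-directed RNA polymerase complex, at 1.46 and 1.54. After quantile normalisation cid12 in Ofd2Δ alone passed 1.5-fold, and 3 of the 12 did so with median scaling and 2 in the deposited values. All of the 12 but ago1 and clr3 were below the 25th percentile of level, with cid12 at the 9.9th. For the dimmest 25% of all targets the median was 1.03 in wt and 1.08 in Ofd2Δ. With median scaling it was 1.34 in Ofd2Δ. The brighter ago1 and clr3 gave 1.12 and 1.01 in wt. Whether the lean of these genes in wt depended on brightness was not tested. Of 15 listed genes of histone methyltransferase complexes and other protein methyltransferases 6 were named, with medians of 1.07 and 1.02. In wt they ran from rmt3 (0.991) to swd3 (1.15) and in Ofd2Δ from set9, an H4 lysine methyltransferase gene, at 0.960 to sdc1, of the Set1 complex, at 1.51, a call that was lost with median scaling and in the deposited values. Of 26 genes of histone acetylation and deacetylation 8 were named, with medians of 1.07 and 1.09, from the sirtuin gene hst2 (0.989) in wt and pst3 (0.937) in Ofd2Δ to naa40, a histone N-terminal acetyltransferase gene, at 1.24 and 1.38. The naa40 target was dim, at the 5.2nd percentile of level. With median scaling 1 of the 8 was at least 1.5-fold higher for hypoxia in Ofd2Δ, between strains in hypoxia and in the quotient of the Ofd2Δ and wt ratios. Over all targets 435, 264 and 434 were so much higher under that scaling. In the deposited values 0 of the 8 were. These lists cover the named targets alone, which are 1647 of the 4997.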

How the data were processed

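Total RNA of wt and Ofd2Δ cells was measured on 4 arrays, 1 per condition. The authors deposited probe files with the raw intensity of every spot (single Cy3 channel, linear scale, extracted with NimbleScan 2.4.31). They also deposited a table of gene-level intensity values after normalisation, not on a log scale; RMA is named in the submitters' processing notes without a version. The column medians of that table are 5446, 5378, 5440 and 5726 for wt and Ofd2Δ in normal oxygen and wt and Ofd2Δ in hypoxia, and its scaling beyond RMA and its match to the printed blocks stay unknown.

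Spot intensities (69954 gene spots per array) were corrected with the RMA convolution background, quantile-normalised across the 4 arrays and put on the log2 scale. Median polish over the 4 arrays then gave 1 value per target, block and array (R 4.3.3). A ratio is the mean of the 2 block ratios. Folds of 2 and 1.5 are the thresholds of the study. The code was tested on simulated data with known folds. Alternatives were no background correction, normexp with an offset of 50 (limma 3.58.1), median scaling, the mean of log2 probe values, the deposited values, either block alone, and leaving out targets below the 25th percentile of level. Further work used Python 3.11.15, numpy 2.4.6, pandas 2.3.3 and matplotlib 3.10.9.

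Names came from the gene tables of the study, held in part (1647 targets, 2 of them histone targets by description). Symbols were looked up in RefSeq's genes for assembly ASM294v3 (1543 found, 1300 with a symbol), used for names only. The order of the SPCC622 genes is that of the numbers in their systematic names. The other 3350 targets are not named here. In the deposited table, the rows of 1694 targets were identified through their values in the study's gene tables, and not all of these targets have a name. Counts and bands over all targets took the rows of the deposited table in consecutive pairs. Genes named in the text are the 5 genes, core histone and dioxygenase targets, the highest and lowest named gene of each list in each strain, and the 3 named targets most like each gene by Euclidean distance of mean-centred log2 levels over 4 arrays. A few more neighbours (SPCC622.07, sec5 and rpl6) were added after their values were seen. The genes and lists were chosen with earlier results of these data known. Array number and signal over background limit the precision.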

Additional observations from a re-analysis of the deposited data

Results flagged for a closer look

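After quantile normalisation the hypoxia ratio of the target described as histone H3 lay on opposite sides of 1 in the 2 strains. Both blocks were below 1 in wt (0.972 and 0.927) and above 1 in Ofd2Δ (1.11 and 1.13), and the Ofd2Δ ratio divided by the wt ratio was 1.175 (1.14 and 1.21 in the blocks). That quotient stood at the 84.7th percentile of all targets, inside their 5th to 95th percentile range of 0.793 to 1.33. The difference was not tested, since each condition has 1 array, and the wt block levels overlapped between conditions. With median scaling and in the deposited values the Ofd2Δ ratio was below 1 as in wt (0.845 and 0.969), and the quotient was 0.892 with median scaling and 0.984 in the deposited values.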

How the results depend on the processing

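Of the ratios of the 5 genes (25 per setting), 25 moved by no more than the gap between blocks under no background correction and normexp. Either block alone cannot move a ratio by more than that gap, since the ratio is the mean of both. Of the 25, 20 did so with the mean of probes, 17 in the deposited values and 14 with median scaling. Of the 25 ratios, 10 fell on the other side of 1 under at least 1 of the 7 alternatives, the blocks included. The number of the 5 genes at least 1.5-fold lower in hypoxia in Ofd2Δ went from 0 to 2 with median scaling (hta1 and htb1) and to 1 in the deposited values (hta1). With median scaling it also went from 0 to 1 between strains in hypoxia (htb1), and to 2 (hta1 and htb1) for the quotient of the Ofd2Δ and wt ratios. No paired analysis was possible because each condition has 1 array and no test was made. The counts over all targets below are the background. The cause of these shifts was not tested, except that the filter on dim targets leaves fewer targets.

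Changed at least 1.5-fold in either direction were 155 targets in wt, 308 in Ofd2Δ, 15 between strains in normal oxygen, 117 between strains in hypoxia and 135 by that quotient. Median scaling gave 787 in Ofd2Δ and 40, 371 and 682 for the last 3. No background correction gave 7, 76 and 88 for those, normexp 9 for the strains in normal oxygen, and the deposited values 57 for the strains in hypoxia and 80 for the quotient. Without dim targets the 5 counts were 68, 125, 1, 43 and 46. At 2-fold the counts were 40 in wt, 72 in Ofd2Δ, 5 between strains in normal oxygen and 16 in hypoxia. They became 26, 2 and 8 with no background correction (wt, then strains in normal oxygen and in hypoxia), 2 and 9 with normexp and 3 and 7 in the deposited values (both between strains), and 168 in Ofd2Δ and 93 between strains in hypoxia with median scaling. Without dim targets they were 14, 30, 0 and 6. Between strains in normal oxygen the split of higher to lower targets at 1.5-fold was 4 to 11, and it was 1 to 39 with median scaling and 0 to 7 with no background correction.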
